A study of Mus musculus with 15 samples.

Results

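The genes described here are those of the mouse major histocompatibility complex whose symbol begins with H2-. They were found by that rule in the table of counts per locus, after symbols joined by commas had been split. The rule gave 38 loci of the 33603 in the table, or of the 23589 that carry a gene name. Of these, 27 were class I (30 symbols) and 9 were class II (10 symbols), and 2, H2-Ke2 and H2-Ke6, lie in the complex but encode neither class. The study fed male C57BL/6 mice in 3 ways and sequenced RNA, freed of ribosomal RNA, from 5 tissues of the same animals: liver, epididymal fat, colon, hypothalamus and hippocampus. AL mice ate ad libitum and were killed at 5 months of age. DR mice had their food cut by 40% from 4 months of age for 1 month and were killed at 5 months. DR-AL mice went through the same restriction, returned to ad libitum feeding for 2 months and were killed at 7 months, so that refeeding and age cannot be told apart when DR-AL is set against the other diets. RNA of 5 mice was combined before sequencing, which left 1 library for each tissue and diet, 15 in all, with no replicate within a tissue and diet. Between 21767088 and 40500130 reads fell on named loci (median 26554699), and levels are given as CPM, counts scaled to a common total of these reads.

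Class I molecules are made by nearly all nucleated cells and carry peptides from inside the cell to CD8 T cells. Their heavy chains include the classical H2-K and H2-D and a larger set of non-classical genes (the Q, T and M series), and all but a few need the light chain B2m. Class II molecules pair an alpha with a beta chain (H2-Aa with H2-Ab1, H2-Ea with H2-Eb1), are made mainly by dendritic cells, macrophages and B cells, travel with the invariant chain Cd74, and are loaded with peptides from outside the cell with the help of H2-DM, which H2-O restrains.

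The 36 loci whose symbol is in GENCODE M21 (GRCm38) all lie on chromosome 17; H2-Q8 and H2-Ke2 had no entry under that name. Class II genes such as H2-Ab1 (chr17:34257689-34269419, plus strand) and H2-Aa (chr17:34282744-34287823, minus strand) lie between H2-K1 (chr17:33996017-34000347, minus strand) and H2-D1 (chr17:35262730-35267499, plus strand), followed by H2-Q10 (chr17:35470089-35474563, plus strand) and H2-T3 (chr17:36185572-36190287, minus strand). Not every count can be assigned to 1 gene. Merged symbols are carried by 4 loci, which were counted as 1 locus each: H2-D1/H2-L (with LOC547349), H2-T10/H2-T22/H2-T9, H2-DMb1/H2-DMb2 and H2-M5, which is merged with 2410137M14Rik, a gene outside the H2 series, and 6 class I loci share a span. Among class I genes 19 of 27 share at least one stretch of 75 bases of transcript with another gene, with a median of 3.69% of such stretches and a highest share of 21.2% in H2-Q5. H2-Q10 shares 12.5%, H2-Q1 10.9%, H2-Q2 8.07%, H2-D1 5.40%, H2-K1 3.10% and H2-T3 none, while in class II it was H2-DMb1 and H2-DMb2 that shared any, 15.8% and 16.1%. The libraries were stranded and the study aligned reads by their orientation, and whether the count per locus also used strand is not stated. Another 6 loci had no read in any library: H2-M10.1, H2-M10.4, H2-M10.5, H2-M10.6, H2-M11 and H2-Ea-ps, the alpha chain gene of the E molecule, which is a pseudogene in mice of the b haplotype. In total 23 loci reached 100 counts in at least 1 library, 16 of class I, 5 of class II and the 2 others.

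Marker genes of each tissue (Fabp4 and Adipoq for fat, Lypd8 and Car1 for colon, Pomc and Avp for hypothalamus, Neurod6 and Prox1 for hippocampus, Apoa1 and Apob for liver, each in a list of 5) summed highest in the libraries labelled with that tissue, although Alb, the main hepatocyte gene, was listed at 0 in all 15 libraries. Some libraries nevertheless stood apart. In fat, the AL library held RNA of liver genes, with Apoa1, Serpina1a and Apob at 12.1%, 10.8% and 15.5% of their CPM in AL liver, against at most 0.141% in DR fat and 0.0519% in DR-AL fat. Genes of testis germ cells (Prm1, Prm2, Tnp1, Tnp2 and Acrv1) summed to 1.98, 375 and 1925 CPM in AL, DR and DR-AL fat, and genes of the epididymis to 909, 3173 and 5125 CPM, so the 3 fat libraries did not hold the same mixture of tissues. The AL hypothalamus library held 278 counts of the colon gene Lypd8, against 14 and 10 in the other two, which is 0.0630% of the CPM in AL colon. Lypd8 also counted 522, 391 and 54 in AL, DR and DR-AL fat and 54, 78 and 21 in hippocampus. Its source and its part in the H2 levels were not tested.

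Class I RNA was abundant outside the brain and low in it, and class II RNA was highest in fat. The class I members summed to 4217, 4284 and 4168 CPM in AL, DR and DR-AL liver. In fat they summed to 3001, 2494 and 2457 CPM and in colon to 3083, 2561 and 2702 CPM. In hypothalamus the sums were 204, 188 and 159 CPM and in hippocampus 95.8, 95 and 103 CPM. Every liver, fat and colon library thus stood more than 10-fold above every brain library, and hypothalamus stood above hippocampus in all 3 diets. Class II summed to 575, 485 and 683 CPM in fat, to 77.4, 59.3 and 83.5 CPM in liver and to 79.1, 52.2 and 95.7 CPM in colon. In hypothalamus class II summed to 23.1, 25.2 and 12 CPM and in hippocampus to 19.95, 18.1 and 21.5 CPM. The 3 fat libraries were far above all others in class II, liver and colon overlapped, and so did the brain regions. In these bulk libraries, fewer cells of a type and less RNA per cell cannot be told apart.

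**Figure D1:**
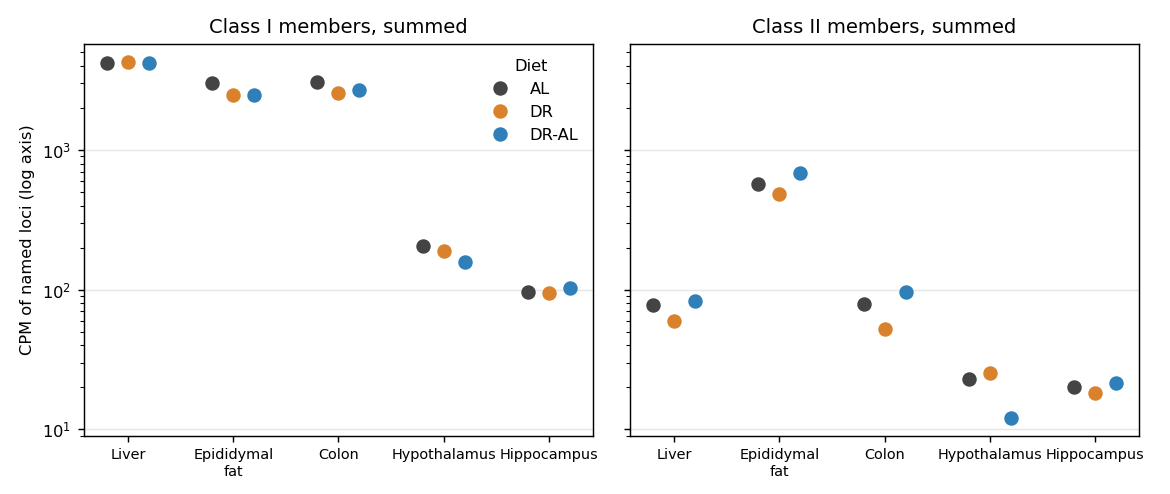
Summed level of the class I (left) and class II (right) H2 members in CPM of named loci on a log axis, 1 point per library, coloured by diet, for the 5 tissues. Class I means over the 3 diets run from 98.0 CPM in hippocampus to 4223 CPM in liver, and class II is highest in the 3 fat libraries (485 to 683 CPM).

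Tissues were compared with edgeR's quasi-likelihood test on all 15 libraries, with tissue and diet as terms and Benjamini-Hochberg adjustment over the 17476 loci tested, which included 19 class I and 8 class II members. The 3 diets served as the repeats of a tissue, and nothing else measures the spread between mice. Of class I, 15 members were higher and 1 lower in the mean of liver, fat and colon than in the mean of the brain regions, and of class II 7 were higher and none lower, against 38.5% higher and 41.8% lower among all loci. The median log2 difference was 3.34 over class I and 2.60 over class II, against -0.02 over all loci. H2-K1 (log2 difference 5.84 ± 0.14 SE, adjusted p = 6.14e-11 by edgeR), H2-D1/H2-L (4.63 ± 0.13) and H2-Aa (4.98 ± 0.30) were higher in all 9 peripheral libraries than in any of the 6 from brain. The exception in class I was the locus that merges H2-M5, a gene of the M series, with 2410137M14Rik, whose reads cannot be told apart. It stood at 4.85, 4.98 and 4.52 CPM in hypothalamus, 0.691, 0.993 and 0.636 CPM in hippocampus, 0.572, 0.745 and 1.64 CPM in fat, 0.0809, 0 and 0.0408 CPM in liver and 0.0377, 0 and 0 CPM in colon (log2 difference -4.0, adjusted p = 7.04e-06 by edgeR). Without the 3 fat libraries, 16 class I members were higher and 1 lower, with 14645 of 17273 loci called in either direction. Setting library totals in place of TMM factors, an alternative added after the data were seen, moved the median of all loci by -0.47 in this comparison, by 1.18 for fat against liver, 0.72 for colon against liver, 0.46 for fat against colon and 0.24 for hypothalamus against hippocampus. Tissue differences smaller than these depend on the scaling, and larger ones change in size by about as much.

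The classical heavy chains H2-K1 and H2-D1/H2-L were, per length in FPKM, among the 3 leading class I loci of every library. H2-K1 stood at 1399, 1379 and 1349 CPM in AL, DR and DR-AL liver, at 1064, 858 and 974 CPM in fat and at 1496, 1320.1 and 1373 CPM in colon. In brain it stood at 38.4, 36.7 and 30.6 CPM in hypothalamus and 24.9, 24.8 and 26.9 CPM in hippocampus. Fat had less H2-K1 than liver (log2 difference -1.68 ± 0.17 SE, adjusted p = 1.05e-05 by edgeR), or -0.50 with library totals, whereas its place in colon against liver turned on the scaling, -0.71 with TMM factors and 0.02 with library totals. H2-D1/H2-L stood at 597, 558 and 656 CPM in liver, 1252, 1164 and 1042 CPM in fat and 825, 738 and 730.0 CPM in colon. In hypothalamus it was measured at 61.1, 60.2 and 56.6 CPM and in hippocampus at 34.4, 35 and 35.9 CPM. In FPKM H2-D1/H2-L was the leading class I locus of all 3 fat libraries and all 6 brain libraries, H2-K1 led in colon, and in liver both came after H2-Q10. In AL liver H2-Q10 had 2588 FPKM, H2-K1 1847 and H2-D1/H2-L 768.

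**Figure D2:**
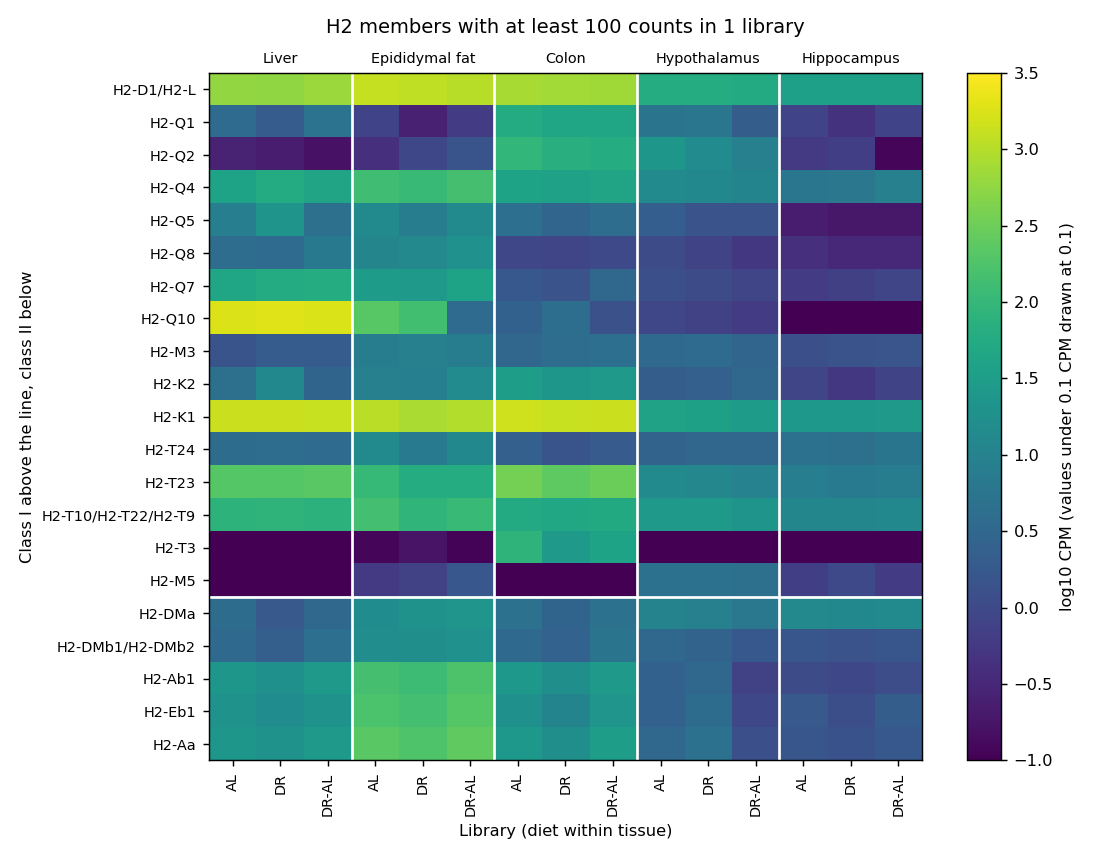
Level of the 16 class I (above the line) and 5 class II (below) members that reached 100 counts in at least 1 library, as log10 CPM of named loci, with the 15 libraries in columns by tissue and diet. H2-Q10 is bright in liver and in the AL and DR fat libraries, H2-T3 in colon alone, and H2-Aa, H2-Ab1 and H2-Eb1 are brightest in fat.

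Several non-classical class I genes had high levels in 1 or 2 tissues and very low levels in the rest. H2-Q10, which encodes a class I molecule secreted by the liver, stood at 1820.4, 1891 and 1732 CPM in AL, DR and DR-AL liver and made up 43.2%, 44.2% and 41.6% of class I counts there. In colon it stood at 2.49, 4.16 and 1.32 CPM, in hypothalamus at 0.910, 0.733 and 0.641 CPM and in hippocampus at 0.0988, 0.0320 and 0.0397 CPM. All 3 liver libraries thus stood far above every library outside liver and fat, and the log2 difference of colon against liver was -10.35 ± 1.23 SE (adjusted p = 2.26e-05 by edgeR). H2-T3, which encodes the thymus leukemia antigen found on gut epithelium, stood at 85.3, 27.6 and 40.5 CPM in colon and at or under 0.175 CPM in each of the other 12 libraries (colon against liver 10.86 ± 0.57 SE, adjusted p = 4.53e-08 by edgeR). H2-Q2 was present in colon at 97, 65.8 and 62.3 CPM and in hypothalamus at 24.3, 14.8 and 9.23 CPM. It stood at 0.593, 0.673 and 0.119 CPM in hippocampus, 0.283, 0.230 and 0.163 CPM in liver and 0.420, 0.964 and 1.5 CPM in fat. The hypothalamus therefore exceeded the neighbouring hippocampus in every diet (4.80 ± 0.50 SE, adjusted p = 7.73e-05 by edgeR), and each 75-base stretch that H2-Q2 shares occurs in H2-Q1, some of them also in other genes (5 partner genes in all). H2-Q1 itself stood at 0.801, 0.263 and 0.621 CPM in fat, 0.790, 0.448 and 0.795 CPM in hippocampus, 59, 44.5 and 44.1 CPM in colon, 5.49, 5.77 and 2.08 CPM in hypothalamus and 3.68, 2.02 and 5.23 CPM in liver.

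H2-T23 encodes Qa-1, the ligand that NKG2A receptors of natural killer cells read. The antisense gene A930015D03Rik spans all 3083 bases of H2-T23 and all 14866 of H2-T24 on the opposite strand, and its part in their counts was not tested. H2-T23 stood at 369.5, 237 and 308 CPM in colon, 207, 207 and 224 CPM in liver and 102, 62 and 61.3 CPM in fat. In hypothalamus it stood at 13.6, 12.3 and 9.71 CPM and in hippocampus at 8.44, 7.27 and 8.15 CPM. The locus was thus higher in liver and colon than in fat in every diet (fat against liver -2.70 ± 0.22 SE, fat against colon -2.46 ± 0.21 SE, adjusted p = 1.96e-06 and 1.93e-06 by edgeR). GENCODE lists H2-T10 as a polymorphic pseudogene, and the protein-coding gene Gm7030 spans all 5590 bases of it on the same strand. The part of Gm7030 in the counts of the next locus was not tested. The merged locus H2-T10/H2-T22/H2-T9, of which H2-T10 and H2-T22 encode ligands of some gamma delta T cells, had its highest values in fat, 146, 89.4 and 113 CPM. It stood at 80.5, 85.7 and 77.5 CPM in liver, 57.1, 48.6 and 54.9 CPM in colon, 26.8, 25.7 and 21 CPM in hypothalamus and 11.7, 11.8 and 12.4 CPM in hippocampus, and the direction of fat against liver turned with the scaling (log2 -0.66 with TMM factors, 0.51 with library totals). H2-Q4, a Q series gene, also had its highest CPM in fat, 129.5, 109.9 and 149, against 41.4, 59.6 and 41.7 CPM in liver and 41, 37.3 and 42.7 CPM in colon. It stood at 13.6, 12.7 and 10.6 CPM in hypothalamus and 5.90, 6.02 and 8.94 CPM in hippocampus. Fat against liver was not called for H2-Q4 with TMM factors (log2 0.27, adjusted p = 0.221 by edgeR), and was 1.45 with library totals. Across the pairs of tissues, fat against liver called 3 class I members higher and 6 lower (41.6% and 28.6% of all loci), colon against liver 6 and 8 (31.5% and 32.5%), fat against colon 10 and 8 (40.4% and 30.3%), and hypothalamus against hippocampus 10 and 1 (15.5% and 15.3%). With library totals in place of TMM factors the balance turned, to 11 higher and 5 lower for fat against liver and 9 and 6 for colon against liver. All loci shifted as well, with 14279 and 11747 of 17476 called in these comparisons. Medians over all loci were 1.57 and 0.69, against 0.94 and 0.07 over class I. Without the AL hypothalamus library, 6 class I members were called between the brain regions, all higher in hypothalamus. Calls over all loci were then 3327 of 18534, against 5373 of 17476 with that library.

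The class II chains H2-Aa, H2-Ab1 and H2-Eb1 had the same order of tissues, highest in fat and lowest in brain in every diet, and H2-DMa did not. H2-Aa, the alpha chain of I-A, stood at 219, 184 and 254 CPM in AL, DR and DR-AL fat, 24.1, 20.8 and 27.7 CPM in liver and 25.5, 17.4 and 31.8 CPM in colon. In hypothalamus it stood at 3.34, 4.95 and 1.2 CPM and in hippocampus at 1.58, 1.35 and 1.75 CPM. Its partner H2-Ab1 stood at 151, 121 and 178 CPM in fat, 24.1, 18.3 and 26.8 CPM in liver, 25, 17.7 and 26.5 CPM in colon, 2.49, 3.27 and 0.769 CPM in hypothalamus and 1.11, 0.929 and 1.15 CPM in hippocampus. The beta chain of I-E, H2-Eb1, was found at similar levels to these although the gene for its alpha chain had no reads. It stood at 171, 141 and 207 CPM in fat, 20.01, 15.4 and 19.8 CPM in liver, 18, 10.8 and 22.5 CPM in colon, 2.46, 3.91 and 0.929 CPM in hypothalamus and 1.80, 1.18 and 2.11 CPM in hippocampus. Fat exceeded liver in 5 class II members and fell below it in none, against 41.6% and 28.6% of all loci, and the same counts held for fat against colon, against 40.4% and 30.3%. With library totals, fat exceeded liver in 7, when 14279 of the 17476 loci were called and the median over all loci was 1.57. Between the brain regions, H2-Eb2 was higher and H2-DMa lower in hypothalamus, against 15.5% and 15.3% of all loci. H2-Eb2 had a mean of 0.491 CPM in hypothalamus and 0 in hippocampus. Colon and liver were told apart by edgeR in none, against 31.5% higher and 32.5% lower of all loci, with 0 also at an unadjusted p under 0.05 and 0 by DESeq2. For H2-Aa, fat exceeded liver by 2.0 ± 0.37 SE (log2, adjusted p = 6.85e-04 by edgeR) and colon by 2.70 ± 0.38 SE (adjusted p = 8.41e-05 by edgeR). Markers of antigen-presenting cells were also highest in fat. The 8 macrophage genes summed to 356, 507 and 436 CPM there, against 144, 124 and 149 CPM in liver and 29.5, 20.5 and 38.2 CPM in colon. In hypothalamus they summed to 121, 119.8 and 99.5 CPM and in hippocampus to 124, 122 and 132 CPM. Both brain regions were thus above colon in these genes, although class II was lowest in brain. The part of these cells in the class II levels was not tested. Cd74, the invariant chain, stood at 375, 397 and 510.3 CPM in fat, 64.3, 46 and 63.1 CPM in liver, 61.5, 46.2 and 84.5 CPM in colon, 7.35, 12.1 and 2.95 CPM in hypothalamus and 4.12, 3.17 and 4.69 CPM in hippocampus, the same order as the chains.

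H2-DMa, the alpha chain of the peptide editor H2-DM, did not follow that order. It stood at 13.2, 12.5 and 14.2 CPM in hippocampus and 10.3, 9.16 and 6.35 CPM in hypothalamus, against 3.92, 1.84 and 3.23 CPM in liver, 4.71, 2.87 and 4.79 CPM in colon and 15.4, 20.4 and 22 CPM in fat. Hippocampus thus stood above hypothalamus in every diet, and both above liver and colon. The hypothalamus was lower than the hippocampus by edgeR (-0.88 ± 0.27 SE, adjusted p = 0.0316), a call that held in 4 of 9 alternative fits, with a highest adjusted p of 0.178. By the same test the periphery was not called against brain (-0.32, edgeR adjusted p = 0.108), and it was called lower without the 3 fat libraries (-0.85, edgeR adjusted p = 0.00101) and with library totals (-0.80, edgeR adjusted p = 0.00211). Per length, H2-DMa had 4.73, 5.02 and 4.33 times the FPKM of H2-Aa in AL, DR and DR-AL hippocampus, against 0.115, 0.0621 and 0.0825 times in liver. Its partner locus H2-DMb1/H2-DMb2 did not share this, at 1.58, 1.41 and 1.63 CPM in hippocampus, 3.27, 2.75 and 1.76 CPM in hypothalamus, 3.52, 2.30 and 4.33 CPM in liver, 3.39, 2.63 and 5.31 CPM in colon and 15.8, 17.2 and 18.6 CPM in fat. The span annotated to H2-DMa overlaps Brd2, a broadly expressed gene on the opposite strand, over 3094 bases (chr17:34119541-34122634). In AL, DR and DR-AL, Brd2 stood at 235, 235 and 229.85 CPM in hippocampus, 216, 221 and 203 CPM in hypothalamus, 191, 221 and 272 CPM in fat, 215, 206 and 205 CPM in colon and 89.9, 95.5 and 81.7 CPM in liver. Liver was thus lowest in Brd2, and colon lay near the brain regions. The part of Brd2 in the H2-DMa counts was not tested.

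Promoter sequence was set beside these levels, since the classical class I genes, H2-Q10 and the class II chains differ in where they were found. RefSeq promoters (GRCm38.p6) were at hand for 30 H2 genes, 21 of class I and 8 of class II, and the 250 bases before the start of each were searched on both strands for 3 motifs, none of which is part of another: the kappa B element of class I promoters (GGGGATTCCCC, read from the H2-K1 promoter itself), the Y box (CTGATTGG, or its reverse complement CCAATCAG) and a core of the interferon response element (GAAA, any 2 bases, GAAA). The kappa B letters were in 2 of 21 class I promoters, H2-K1 by construction and H2-D1, and in none of class II, against 0.0304% of 32851 mouse promoters. The Y box letters were in 11 of 21 class I promoters and in 4 of 8 of class II (H2-Aa, H2-Eb1, H2-Eb2 and H2-Oa), against 3.83% of all. Those of class I were H2-D1, H2-Q7, H2-T23, H2-M1, H2-M9, H2-M10.1, H2-M10.3, H2-M10.4, H2-M10.5, H2-M10.6 and H2-M11. None of these M series genes passed 38 counts in a library. The interferon element letters were in 2 of class I (H2-T22 and H2-T23) and none of class II, against 2.98% of all. The upstream 250 bases of 3 class I and 2 class II genes are shown, 5′ to 3′ on the strand of the gene, because they are the classical class I genes, H2-Q10, whose levels differ widely between tissues, and the class II chains that had both high levels and a RefSeq entry. They are counted from RefSeq starts, which for H2-D1 lies within the GENCODE span. Capitals mark the kappa B element and the Y box on either strand. The stretches lie at chr17:34000348-34000597 (minus strand) for H2-K1, chr17:35262844-35263093 (plus) for H2-D1, chr17:35469839-35470088 (plus) for H2-Q10, chr17:34287824-34288073 (minus) for H2-Aa and chr17:34305617-34305866 (plus) for H2-Eb1.
H2-K1: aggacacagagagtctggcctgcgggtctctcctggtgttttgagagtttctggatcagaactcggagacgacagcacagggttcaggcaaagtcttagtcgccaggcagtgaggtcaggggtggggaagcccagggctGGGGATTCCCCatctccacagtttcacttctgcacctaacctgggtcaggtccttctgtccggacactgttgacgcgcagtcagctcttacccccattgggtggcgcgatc
H2-D1: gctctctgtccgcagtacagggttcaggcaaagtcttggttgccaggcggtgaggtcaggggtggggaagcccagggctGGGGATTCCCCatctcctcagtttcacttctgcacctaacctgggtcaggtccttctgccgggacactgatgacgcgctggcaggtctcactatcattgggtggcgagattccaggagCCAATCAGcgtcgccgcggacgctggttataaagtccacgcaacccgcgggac
H2-Q10: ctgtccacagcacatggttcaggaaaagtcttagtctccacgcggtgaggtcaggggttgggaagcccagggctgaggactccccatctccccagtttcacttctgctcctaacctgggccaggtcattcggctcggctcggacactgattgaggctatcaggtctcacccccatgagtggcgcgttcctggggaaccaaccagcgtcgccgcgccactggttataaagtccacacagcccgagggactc
H2-Aa: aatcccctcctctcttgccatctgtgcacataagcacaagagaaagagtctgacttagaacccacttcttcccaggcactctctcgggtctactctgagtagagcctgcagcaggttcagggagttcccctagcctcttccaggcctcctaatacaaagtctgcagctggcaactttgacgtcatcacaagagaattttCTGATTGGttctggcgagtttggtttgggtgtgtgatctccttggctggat
H2-Eb1: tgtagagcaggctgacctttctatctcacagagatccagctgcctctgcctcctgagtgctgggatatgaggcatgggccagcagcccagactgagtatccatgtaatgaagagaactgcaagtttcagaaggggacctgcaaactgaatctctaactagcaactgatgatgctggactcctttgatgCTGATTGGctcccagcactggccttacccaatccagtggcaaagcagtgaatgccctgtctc
Neither run of letters was intact in H2-Q2, H2-Q4, H2-T3 and H2-M3, among other class I genes. H2-Q10, 43.2% of class I counts in AL liver, also had neither intact. Counted from 1 at the 5′ end of the motif, its nearest stretch differs from the kappa B element at G2A and T6C, and 2 stretches come within 1 base of the Y box, one differing from it at G8A and the other from its reverse complement at T5C. A match of letters is a description of sequence and not evidence of binding, and a lack of one says only that these letters are not in this window.

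Over all 5 tissues, edgeR called no H2 member between diets. The tissues served as the repeats of a diet and come from the same mice. DR against AL, DR-AL against AL and DR-AL against DR called 0 members of either class, against 0.0114%, 0.00572% and 0.0114% of all loci, and DESeq2 also called 0. At an unadjusted p under 0.05, DR against AL had 2 class I members (H2-T23 and H2-T3) and none of class II, DR-AL against AL had 1 (H2-T3) and none, and DR-AL against DR had 1 of each class (H2-Q7 and H2-Ob). These members fell within the 657, 862 and 656 loci of the whole table at that level. What follows is therefore within tissues, with 1 library per diet. There, a member is called where the study's own criterion holds, a Z test on square roots of counts with Benjamini-Hochberg adjustment under 0.05 and an absolute log2 ratio of at least 0.32. That test compares 2 libraries and not the diets, so no p is given, and the 95% intervals cover counting error only. DR and DR-AL share the AL library of their tissue.

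**Figure D3:**
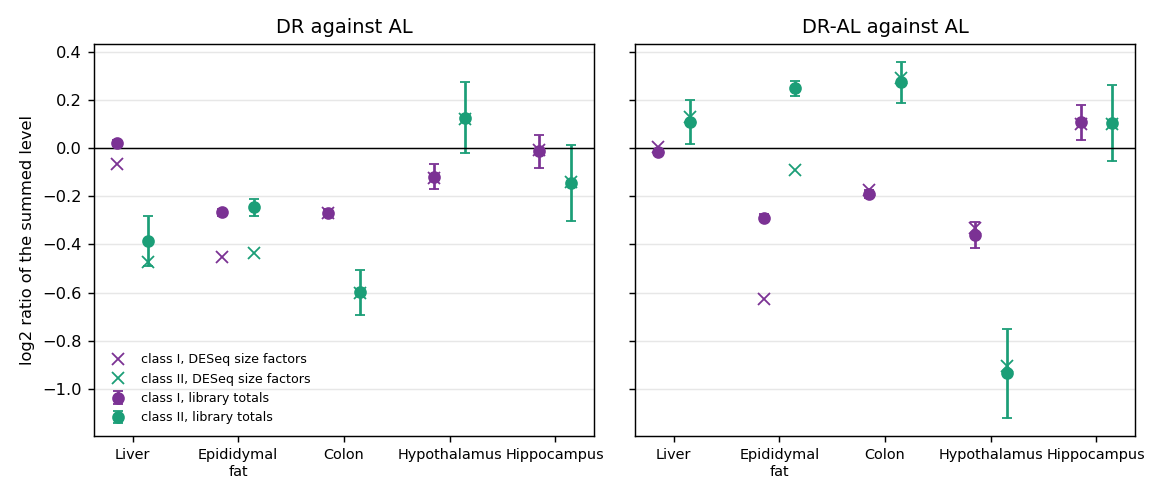
log2 ratio of the summed class I and class II levels for DR against AL (left) and DR-AL against AL (right) in 5 tissues. Circles use library totals with 95% counting intervals, and crosses use DESeq size factors. Class II is below 0 in DR liver and colon and lies at -0.94 in DR-AL hypothalamus, while for class II in DR-AL fat the circle is above and the cross below 0.

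In colon, both classes were lower in DR than in AL, and in DR-AL class II alone was higher than in AL. Class I summed to 3083, 2561 and 2702 CPM in AL, DR and DR-AL, log2 ratios to AL of -0.27 and -0.19. Class II summed to 79.1, 52.2 and 95.7 CPM, log2 ratios of -0.60 (-0.69 to -0.51) and 0.27 (0.19 to 0.36). DR-AL was above DR in both, by 0.08 (0.06 to 0.09) for class I and 0.87 (0.78 to 0.96) for class II. The DR library was thus the lowest in both classes, and DR-AL lay below AL in class I and above it in class II. Called in DR were 1 class I member higher and 8 lower, and 0 class II members higher and 5 lower, against 9.04% of all tested loci higher and 10.6% lower. In DR-AL they were 2 higher and 5 lower for class I and 2 higher and none lower for class II, against 5.83% and 8.50%. With DESeq size factors H2-Aa (0.34) and H2-Eb1 (0.34) passed as well in DR-AL, which made 4 of class II. Members averaging 10 counts or more had a median log2 ratio of -0.41 for class I and -0.69 for class II in DR colon, against 0.01 for all loci.

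H2-T3 had the largest fold of the colon members with at least 100 counts in 1 library, in both comparisons. It counted 2266, 922 and 1015 reads in AL, DR and DR-AL colon, or 85.3, 27.6 and 40.5 CPM. AL was the highest and DR the lowest, log2 ratios of -1.63 (95% interval -1.74 to -1.52) and -1.07 (95% interval -1.18 to -0.97). H2-Q2 and H2-T23 were lower in DR as well, by log2 ratios of -0.56 and -0.64, and H2-Q2 also in DR-AL (-0.64). For H2-K1 and H2-D1/H2-L the ratios of DR to AL were -0.18 and -0.16, under the threshold of 0.32. In class II, H2-Aa (-0.55), H2-Ab1 (-0.50), H2-Eb1 (-0.74), H2-DMa (-0.71) and H2-Ob (-2.14, 40, 11 and 71 counts) were lower in DR, and H2-Ob, the beta chain of H2-O, and H2-DMb1/H2-DMb2 were higher in DR-AL (0.90 and 0.65).

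Genes that work with these followed in part, and their counts in DR stand beside the 9.04% higher and 10.6% lower of all loci. Cd74 was -0.41 in DR and 0.46 in DR-AL against AL, called in both, and B2m was lower in DR (-0.34, 578, 457 and 503 CPM). Among genes of class I peptide loading, DR had 2 higher and 4 lower of 14. Among genes of class II loading, it had 1 higher and 4 lower of 8. Among interferon-stimulated genes, DR had 1 higher and 8 lower of 16 with a median of -0.53, among them Ifit1 (-1.14) and Oasl2 (-1.09). In DR-AL with DESeq size factors, 3 were higher and 6 lower of 16, against 6.52% and 7.83% of all loci. The list summed to 454, 295 and 324 CPM in AL, DR and DR-AL, below AL in DR-AL, where class II was above it. Markers of B cells moved with the class II members. All 7 were called lower in DR colon and 6 higher in DR-AL colon (5.83% of all loci higher), their sum being 11.2, 3.17 and 24.5 CPM in AL, DR and DR-AL. The 3 leukocyte genes summed to 21.5, 8.50 and 30.9 CPM and the 7 T cell genes to 9.23, 2.90 and 11.4 CPM. The part of these cells and of fat tissue in the H2 ratios was not tested.

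**Figure D4:**
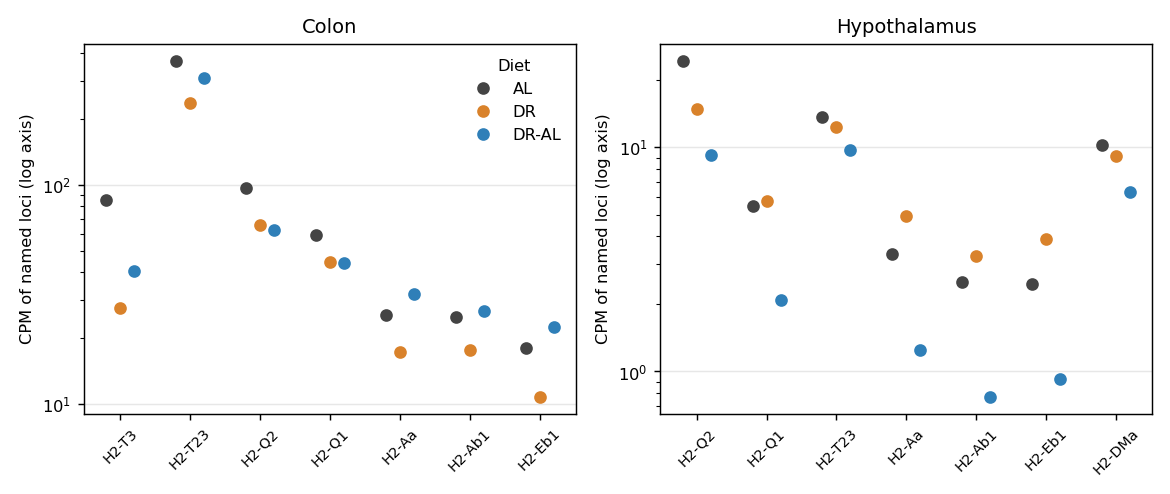
Level of 7 H2 members called in colon (left) and 7 called in hypothalamus (right), in CPM of named loci on a log axis, 1 point per library coloured by diet. In colon the DR point is the lowest for H2-T3 (27.6 CPM against 85.3 in AL), and in hypothalamus the DR-AL point is the lowest for H2-Aa, H2-Ab1, H2-Eb1, H2-Q1 and H2-Q2.

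In liver, class II was lower in DR while the class I sum stayed nearly level. Class II summed to 77.4, 59.3 and 83.5 CPM in AL, DR and DR-AL, log2 ratios to AL of -0.39 (-0.49 to -0.28) and 0.11 (0.02 to 0.20). Class I ratios were 0.02 and -0.02, the first turning to -0.07 with DESeq size factors. DR was thus lowest in class II, with AL and DR-AL close to each other. DR called 4 class I members higher and 1 lower, and 0 class II members higher and 6 lower, against 18.0% of loci higher and 9.92% lower. Among all calls 63.8% were higher in DR with library totals and 48.9% with DESeq size factors. DR-AL called 4 and 3 for class I and 0 and 1 for class II, against 15% and 15.8%. The class II median was -0.47 in DR against 0.08 for all loci. H2-DMa had the largest fold of the class II members that reached 100 counts anywhere, with 97, 40 and 79 counts and a log2 ratio of -1.08 (95% interval -1.66 to -0.55) in DR. H2-Ab1 (-0.40) and H2-Eb1 (-0.37) were lower too, and H2-Aa (-0.22) missed the threshold of 0.32. Cd74 was lower in DR by the same call (-0.48).

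Some class I genes went the other way in liver, in a share near that of all loci. With DESeq size factors, 3 of 19 class I members were called higher in DR, against 14.0% of all loci. H2-Q5, a polymorphic pseudogene of the Q series that shares sequence mainly with H2-Q7, counted 206, 460 and 112 in AL, DR and DR-AL, a log2 ratio of 1.34 (95% interval 1.10 to 1.59) in DR and -0.86 in DR-AL. H2-K2, a transcribed pseudogene next to H2-K1, counted 115, 271 and 68 with ratios of 1.42 (95% interval 1.10 to 1.75) and -0.74. In both, DR was the highest library and DR-AL the lowest. H2-Q4 (0.53) and H2-Q7 (0.33, not called with DESeq size factors at 0.24) were also higher in DR, and H2-Q1 lower (-0.86). H2-Q10 had ratios of 0.06 and -0.07, and H2-K1 of -0.02 and -0.05, none called. The interferon-stimulated list had 0 higher and 9 lower of 16 in DR and 7 higher and 1 lower of 16 in DR-AL liver, against 18.0% higher and 9.92% lower, and 15% and 15.8%, of all loci, with Rsad2 at -1.59 and Ifit1 at -1.44 in DR. The peptide transporter Tap1 was lower in DR as well (-0.97). Nlrc5, a transactivator of class I genes, stood at 20.3, 24.4 and 11.6 CPM and was lower in DR-AL (-0.81). B cell markers summed to 5.82, 1.88 and 4.53 CPM and macrophage markers to 144, 124 and 149 CPM in AL, DR and DR-AL liver. Dendritic cell markers summed to 8.49, 10.5 and 8.82 CPM, with DR highest. The part of these cells was not tested.

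In hypothalamus, the DR-AL library had the least H2 RNA of both classes. Class I summed to 204, 188 and 159 CPM in AL, DR and DR-AL, with log2 ratios to AL of -0.12 (-0.17 to -0.07) and -0.36 (-0.41 to -0.31). Class II summed to 23.1, 25.2 and 12 CPM, with ratios of 0.13 (-0.02 to 0.27) and -0.94 (-1.12 to -0.75). DR-AL was the lowest library in both. DR called 0 class I members higher and 1 lower and 2 class II members higher and none lower, against 4.33% and 2.72% of loci. DR-AL called 1 and 7 for class I and 0 and 5 for class II, against 6.06% and 9.02%. The class II median of -0.89 in DR-AL stood beside -0.03 for all loci.

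The class II chains of the hypothalamus rested on few reads. H2-Aa counted 99, 162 and 39 in AL, DR and DR-AL, log2 ratios of 0.57 and -1.41 (95% interval -1.99 to -0.87). H2-Ab1 counted 74, 107 and 24, with -1.68 (95% interval -2.43 to -1.02) in DR-AL. H2-Eb1 counted 73, 128 and 29, with 0.66 in DR and -1.39 (95% interval -2.08 to -0.77) in DR-AL. For all 3 chains DR was the highest and DR-AL the lowest library. Cd74 went the same way, at 7.35, 12.1 and 2.95 CPM (0.72 and -1.31, both called). In class I, H2-Q2 counted 721, 485 and 288, with ratios of -0.71 and -1.39 (95% interval -1.60 to -1.20), and H2-Q1 counted 163, 189 and 65 (-1.39 in DR-AL). AL was the highest H2-Q2 library and DR-AL the lowest. H2-Q8 was lower in DR-AL on 33, 27 and 17 counts (-1.01, or -0.31 at the weakest of 6 alternatives, 4 of which kept the call). H2-K1 (-0.33, not called with DESeq size factors at -0.30), H2-T23 (-0.48) and H2-T10/H2-T22/H2-T9 (-0.35) were also lower in DR-AL. Of class I loading genes, DR-AL had 0 higher and 7 lower of 14 (4 lower with DESeq size factors), against 6.06% and 9.02% of all loci, among them B2m (-0.37, 108, 100.2 and 83.9 CPM) and the peptide trimmer Erap1 (-0.62). The interferon-stimulated list had 0 higher and 9 lower of 16, with Irf7 at -1.10 and Ifit3 at -1.03. Macrophage markers, which microglia share in part, summed to 121, 119.8 and 99.5 CPM, leukocyte markers to 69.7, 64.5 and 61.7 CPM and B cell markers to 0.607, 1.04 and 0.737 CPM, with no B cell marker called. Dendritic cell markers went the other way from class II in DR-AL, at 22.8, 25.6 and 29.3 CPM in AL, DR and DR-AL. Markers of the regions also moved across these libraries, the 5 hypothalamus genes at 776, 527 and 485 CPM and the 5 hippocampus genes, mainly Wfs1, at 252, 185 and 150.4 CPM in AL, DR and DR-AL. The part of cell types and of dissection in the H2 ratios was not tested.

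In fat, the values are given beside the unequal mixture described above. Class I summed to 3001, 2494 and 2457 CPM in AL, DR and DR-AL, log2 ratios to AL of -0.27 and -0.29, or -0.45 and -0.63 with DESeq size factors. Without H2-Q10, an alternative added after the data were seen, the ratios were -0.24 and -0.18. Class II ratios were -0.25 and 0.25, the second turning to -0.09 with DESeq size factors. DR called 1 class I member higher and 7 lower and 1 class II member each way, against 35.2% of loci higher and 10.4% lower. DR-AL called 6 and 4 for class I and 2 and 0 for class II, against 46.0% and 11.9%. With DESeq size factors the balance turned, to 0 higher and 11 lower for class I and 0 and 4 for class II in DR, against 26.2% and 16.6% of all loci, and to 5 and 8 for class I and none for class II in DR-AL, against 33.4% and 24.7%. The median log2 ratio was -0.24 for class I and -0.26 for class II in DR, against 0.24 for all loci, and -0.06 and 0.25 in DR-AL, against 0.34. Among all calls, 77.5% were higher in DR with library totals and 60.7% with DESeq size factors, and 78.3% and 54.6% in DR-AL. DESeq size factors moved the median over all loci from 0.24 to 0.05 in DR and from 0.34 to 0 in DR-AL, and log2 ratios in fat smaller than these shifts depend on the scaling.

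H2-Q10 had the largest ratio of any H2 member here. It counted 5725, 3114 and 102 reads in AL, DR and DR-AL fat, log2 ratios of -0.68 (95% interval -0.74 to -0.62) and -5.86 (95% interval -6.17 to -5.59). AL was highest and DR-AL far below both others. Set against liver of the same diet, H2-Q10 in fat came to 12%, 7.21% and 0.215%. Apoa1, which hepatocytes secrete, came to 12.1%, 0.0903% and 0.0180%. H2-Q10 thus stood at the share of the liver genes in AL and above it in DR and DR-AL, where Serpina1a came to 0.131% and 0.0519% and Apob to 0.141% and 0.0135%. The part of liver RNA in the H2-Q10 level of fat was not tested. Cyp2e1, which fat also expresses, came to 55.2%, 43% and 45.8%. H2-T23 (102, 62 and 61.3 CPM) was lower in both comparisons (-0.72 and -0.74), and so was H2-T10/H2-T22/H2-T9 (-0.71 and -0.37). H2-T24 counted 362, 157 and 345, lower in DR (-1.0). H2-Q1 (21, 6 and 17 counts), H2-Q2 (11, 22 and 41) and H2-M5 (15, 17 and 45) passed a fold of 2 on few reads, with log2 ratios of -1.54 in DR for H2-Q1, 1.16 (not called with DESeq size factors, 0.98) and 1.79 for H2-Q2 and 1.49 in DR-AL for H2-M5. Over 6 alternatives, H2-Q1 ran from -1.72 to -0.28 and H2-M5 from 0.0016 to 1.49, each kept in 4. H2-Q2 ran from 0.081 to 1.16 in DR (kept in 2) and from 0.019 to 1.79 in DR-AL (kept in 4). In class II, H2-Ab1 was lower in DR (-0.32). H2-DMa was higher in both comparisons (0.40 and 0.51), and its calls ended with DESeq size factors (0.21 and 0.18). Cd74 was at 0.08 in DR, not called, and higher in DR-AL (0.44), a call that also ended with DESeq size factors (0.11). With those factors H2-K1 (-0.50), H2-Aa (-0.44) and H2-Eb1 (-0.47) were called lower in DR, and H2-K1 (-0.47) and H2-D1/H2-L (-0.60) in DR-AL. Nlrc5 was lower in DR-AL (-0.36, 39.3, 32.7 and 30.6 CPM). The macrophage markers summed to 356, 507 and 436 CPM, the dendritic cell markers to 49.4, 33.6 and 60.8 CPM and the B cell markers to 19.8, 11.7 and 26.2 CPM, the last 2 lists with DR lowest and DR-AL highest as in class II, and their part was not tested.

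**Figure D5:**
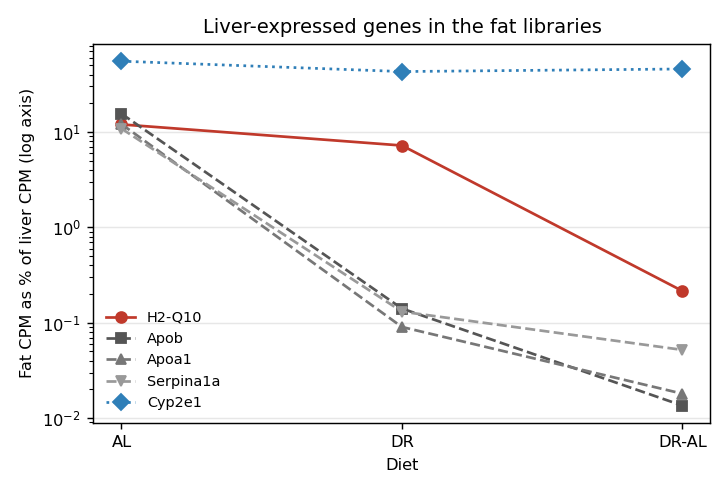
CPM in epididymal fat as a percentage of the CPM in liver of the same diet, on a log axis, for H2-Q10 and 4 liver-expressed genes in AL, DR and DR-AL. H2-Q10 lies with Apoa1, Serpina1a and Apob in AL (10.8% to 15.5%), above them at 7.21% in DR, and at 0.215% in DR-AL, while Cyp2e1 stays between 43.0% and 55.2%.

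In hippocampus, few H2 members differed between libraries. The class I ratio to AL was -0.01 (-0.08 to 0.06) for the DR library and 0.11 (0.03 to 0.18) for DR-AL, and class II ratios -0.14 (-0.30 to 0.01) and 0.11 (-0.05 to 0.26). DR called no member of either class, against 1.36% of loci higher and 2.67% lower. DR-AL called H2-Q4 higher (239, 188 and 225 counts, log2 0.60) and H2-Q2 lower (24, 21 and 3 counts, -2.17, 95% interval -4.69 to -0.59), against 3.99% and 2.16%, and no class II member. B2m stood at 103, 84.9 and 107 CPM and was not called.

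The remaining class I loci that reached 100 counts were H2-Q7, H2-Q8, H2-M3, H2-T24, H2-Q5 and H2-K2. H2-Q7 encodes Qa-2, a molecule anchored to the membrane by lipid, and stood at 46, 57.8 and 61 CPM in AL, DR and DR-AL liver, 29.3, 26 and 40.9 CPM in fat and 1.77, 1.41 and 3.15 CPM in colon. H2-M3 presents peptides that begin with formyl methionine, and stood at 7.67, 9.11 and 7.75 CPM in fat, 3.01, 4.13 and 4.39 CPM in colon and 3.40, 3.82 and 2.88 CPM in hypothalamus. In liver H2-M3 stood at 1.5, 2.07 and 2.04 CPM and in hippocampus at 1.23, 1.41 and 1.51 CPM. H2-Q7 was thus higher in liver and fat than in colon, and H2-M3 highest in fat. H2-Q8 stood at 4.08, 3.68 and 6.70 CPM in liver, 11.2, 13.2 and 19.1 CPM in fat, 0.904, 0.868 and 0.998 CPM in colon, 1.11, 0.825 and 0.545 CPM in hypothalamus and 0.420, 0.320 and 0.318 CPM in hippocampus. Its CPM was highest in fat in every diet. Fat against liver was not called for H2-Q8 with TMM factors (log2 0.41, adjusted p = 0.251 by edgeR), and was 1.61 with library totals. H2-T24 stood at 3.84, 4.13 and 3.76 CPM in liver, 13.8, 6.88 and 12.6 CPM in fat, 2.41, 1.5 and 1.997 CPM in colon, 2.70, 3.02 and 3.04 CPM in hypothalamus and 4.74, 4.61 and 5.52 CPM in hippocampus. H2-T24 was thus higher in hippocampus than in hypothalamus in each diet. H2-Q5 stood at 8.33, 21.1 and 4.57 CPM in liver, 14.1, 7.71 and 13.6 CPM in fat, 4.33, 2.96 and 4.03 CPM in colon, 2.19, 1.44 and 1.44 CPM in hypothalamus and 0.222, 0.192 and 0.199 CPM in hippocampus. H2-K2 stood at 4.65, 12.4 and 2.78 CPM in liver, 9.19, 8.94 and 14.8 CPM in fat, 33.3, 24 and 26 CPM in colon, 2.16, 2.35 and 3.27 CPM in hypothalamus and 0.864, 0.544 and 0.835 CPM in hippocampus, highest in colon in every diet. Another 6 class I loci had reads but stayed under 100 counts in every library, as did the class II genes H2-Oa, H2-Ob and H2-Eb2.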

How the data were processed

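RNA was measured in 15 libraries, 1 for each of 5 tissues and 3 diets, each made from the RNA of 5 mice. Stranded paired-end libraries were aligned by the authors with Strand software, duplicates were removed and reads were counted per locus. The methods name mm10 and DESeq, and the submitters' processing notes name mm9 and DESeq2. The deposited table holds raw counts and FPKM side by side for 33603 loci. Positions in it do not match mm10 (13.7% of 21262 loci on the same chromosome overlap GENCODE M21), so printed coordinates are those of GENCODE M21. The 10014 loci without a name were not used.

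Counts were divided by the total of named loci (21767088 to 40500130). How the authors' FPKM were scaled between libraries is not given in the sources used here, so FPKM served to order genes and form ratios of genes within a library, to choose the members named by their mean, and in alternatives with pseudocounts of 0.1 and 1. Within a tissue, loci with at least 1 count in its 3 libraries were compared by the study's Z test (square roots of counts over the total, Poisson variance), with Benjamini-Hochberg adjustment under 0.05 and an absolute log2 ratio of at least 0.32 after adding 0.5 to each count. Intervals are exact (Clopper-Pearson, 95%) and cover counting error only. Between tissues, and between diets over tissues, edgeR 4.0.16 in R 4.3.3 was used (quasi-likelihood, TMM, filterByExpr, tissue and diet as terms, residual df 8, 17476 loci, common coefficient of variation 0.301), with DESeq2 1.42.0 as an alternative. Both steps were checked on simulated data. Whether the libraries of a tissue differ by diet or by mouse is not measured, so p-values reflect the spread between these libraries.

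Values in every library are given for members that reached 100 counts and were, within their class, among the 6 highest by mean FPKM or called with a fold of 2 in a tissue. For H2-T3 outside colon an upper limit is given instead. Genes of other lists (class I and class II peptide loading, MHC transcription, interferon-stimulated genes, class I-like genes outside H2, and cell type markers) are named as the 3 most abundant, the 2 most changed or partners of a named member. The members and lists were chosen with earlier results of these data known. Sequence shared between genes was counted as identical 75-mers of GENCODE transcripts. Promoters came from RefSeq (GRCm38.p6). Alternatives were other scalings (DESeq size factors, totals without the 10 largest loci), a fold of 2, a negative binomial variance with a coefficient of variation of 0.1, a minimum mean of 10 counts, FPKM, libraries left out, and no diet or tissue term.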

Additional observations from a re-analysis of the deposited data

Results flagged for a closer look

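Among the class sums, pairs of tissues moved in opposite directions between the DR-AL and AL libraries by more than counting error. The summed class I log2 ratio of DR-AL to AL was -0.29 in epididymal fat, -0.19 in colon and -0.36 in hypothalamus, and 0.11 in hippocampus. The summed class II ratio was 0.11 in liver and 0.27 in colon, and -0.94 in hypothalamus. With 1 library for each tissue and diet, each sign rests on a single pair of pools, and the difference between tissues was not tested. The fat value was -0.18 without H2-Q10.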

How the results depend on the processing

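With 1 library per tissue and diet, the calls within tissues rest on counting error, and most depend on how strict the call is. At a fold of 2, DR against AL called 5 members of both classes in liver, 4 in fat, 3 in colon and 0 in hypothalamus, and DR-AL against AL 3 in liver, 6 in fat, 1 in colon, 6 in hypothalamus and 1 in hippocampus. With an assumed coefficient of variation of 0.1 between libraries, the counts were 3, 5, 4 and 0 for DR, and 1, 7, 1, 5 and 0 for DR-AL, in the same order of tissues. A minimum mean of 10 counts left 5 in DR-AL liver. FPKM with a pseudocount of 0.1 gave 6 in DR-AL fat, and with 1 gave 5 in DR-AL fat and 8 in DR-AL hypothalamus. In FPKM the median log2 ratio over all loci in DR-AL fat was -1.18, against 0.34 with library totals. The shares of all loci passing these rules are not given here, so these counts do not show whether the members differ from other loci.

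Class sums in liver and fat moved with the scaling. With DESeq size factors the class I log2 ratios were -0.065 in DR and 0.0036 in DR-AL liver, -0.45 and -0.63 in fat and -0.17 in DR-AL colon, and the class II ratios in fat were -0.43 and -0.089. With totals that leave out the 10 largest loci, class I was 0.051 and -0.00013 in liver and -0.31 and -0.37 in fat, and class II -0.29 and 0.17 in fat. Without the most abundant member, class I was -0.0028 and 0.023 in liver, -0.39 and -0.31 in fat, -0.36 and -0.26 in colon and -0.48 in DR-AL hypothalamus, and class II was 0.33 and -1.16 in hypothalamus. Without H2-Q10, class I in fat was -0.24 and -0.18. The class I sum of the liver therefore had no stable sign.

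Between tissues, leaving out the 5 libraries of 1 diet gave 3 to 5 class II members for fat against liver and 0 to 3 for colon against liver (none by edgeR with all libraries), 3 to 9 class I and 0 to 3 class II members for hypothalamus against hippocampus. The lowest of these came without AL for fat against liver (3), and without DR for the brain regions (3 and 0). Over all loci, calls between the brain regions fell from 5373 of 17476 to 2027 of 17527 without DR. For fat against liver they went from 12267 of 17476 to 11742 of 18425 without AL. The highest counts of members came without DR-AL. In that fit 10512 of 17548 loci were called for fat against liver, 10461 for colon against liver and 4378 for the brain regions. Without the AL hypothalamus library, an alternative chosen after seeing the data, the brain regions differed in 6 class I members and 1 of class II. In that fit 3327 of 18534 loci were called. With library totals in place of TMM factors, also chosen then, fat against liver called 16 class I members, 11 higher and 5 lower. Colon against liver called 9 higher and 6 lower, and the brain regions 1 of class II. Over all loci, 14279, 11747 and 5591 of 17476 were called in these comparisons, with medians of 1.57, 0.69 and 0.26. With those totals H2-T10/H2-T22/H2-T9 in fat against liver turned to 0.51, and H2-K1 in colon against liver turned to 0.019. The causes of these moves were not tested. Of 256 checks of 46 class sums and counts of members against an alternative, 199 stayed close in size, 52 moved and 5 reversed. A class sum was close where it stayed within its counting interval. A count was judged by the number called in either direction, so a turn between higher and lower was not scored. Of 399 checks of 55 values of single members, 361 kept direction and call, 36 lost the call and 2 reversed. The labels carry no replicate numbers, and diet entered the tissue fits and tissue the diet fits as terms. Without the diet term, fat against liver called 10 class I members in place of 9 (12503 of 17476 loci in all). The brain regions then differed in 12 in place of 11 (5579 of 17476 loci). Without the tissue term no member was called between diets. Over the 5 tissues, no member was called between diets under any alternative run.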

Other observations

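The complex also holds loci that encode neither class. H2-Ke2, a prefoldin subunit, stood at 27.3, 39.3 and 25.4 CPM in AL, DR and DR-AL liver, 22.5, 30.5 and 29.8 CPM in fat, 20.9, 26.6 and 24.2 CPM in colon, 35.7, 37.2 and 38.7 CPM in hypothalamus and 34.2, 33.8 and 35.3 CPM in hippocampus, and was called higher in DR in liver, fat and colon (0.53, 0.44 and 0.35, the fat value 0.25 and not called with DESeq size factors). H2-Ke6 encodes the 17-beta-hydroxysteroid dehydrogenase Hsd17b8 and shares 65.5% of its 75-base stretches with Gm20427, which lies over it on the same strand. It stood at 70.6, 82.2 and 62.6 CPM in liver, 60, 41.8 and 40.5 CPM in fat, 25.6, 24.6 and 24.2 CPM in colon, 19.7, 18 and 18.2 CPM in hypothalamus and 11.9, 12.4 and 11.8 CPM in hippocampus. It was called lower in both comparisons in fat (-0.52 and -0.56) and in no other tissue.

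Class I-like genes outside the complex were also compared. In fat, DR had 1 higher and 3 lower of 9 and DR-AL 0 higher and 4 lower of 9, against 35.2% higher and 10.4% lower, and 46.0% and 11.9%, of all loci. Azgp1, a secreted class I-like protein, stood at 1994, 1917 and 2100.2 CPM in AL, DR and DR-AL liver and at 245, 3.90 and 1.10 CPM in fat, so that it was high in the one fat library that also held RNA of the liver genes Apoa1, Serpina1a and Apob, and the part of that RNA in its level was not tested. In liver, DR had 1 higher and 3 lower of 8 (18.0% and 9.92% of all loci), and in hypothalamus DR-AL had 0 higher and 3 lower of 8 (6.06% and 9.02%). Of genes that act in the transcription of both classes, liver had 2 higher and 3 lower of 16 in DR, colon 3 higher and 1 lower of 16 in DR (9.04% and 10.6%) and hypothalamus 0 higher and 3 lower of 16 in DR-AL.

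Of T cell markers, DR-AL fat had 7 higher and 0 lower of 7, against 46.0% of all loci higher and 11.9% lower, and of dendritic cell markers DR fat had 1 higher and 4 lower of 7, against 35.2% and 10.4%. With DESeq size factors Cd8b1 among the T cell markers and Cd209a among those of dendritic cells were no longer called. Of all calls in DR-AL fat, 78.3% were higher with library totals and 54.6% with DESeq size factors. Microglia markers had 0 higher and 0 lower of 6 in DR-AL hypothalamus, against 6.06% and 9.02% of all loci.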
